A study of Macaca fascicularis with 11 samples.

Results

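IGFBP2 (ENSMFAG00000040045) and IGFBP6 (ENSMFAG00000000085) encode secreted binding proteins for insulin-like growth factors (IGFs), and are 2 of the 19367 genes in the count matrix. They were selected on measured values, chosen by their high Day 10 levels among groups of epiblast-derived (Epi-derived) cells, so their Day 10 levels there, and Day 10 set against later days, are given as descriptions without a test. Both were matched to their identifiers through the symbols in the study's supplementary tables and were present in all 11 libraries. Identifiers belong to the cynomolgus Ensembl annotation named in the study's methods, for which no coordinates were used here.

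Embryos of the cynomolgus monkey (Macaca fascicularis) were thawed as blastocysts, cultured in vitro past the stage of implantation in medium with serum, and dissociated at Day 10, Day 12 or Day 14 for droplet 3' RNA sequencing. Wild-type embryos gave 6 libraries and 12 embryos, with 2 batches at each day, and ISL1 hypomorphic mutant embryos gave 5 libraries and 11 embryos, with 1 batch at Day 10 and 2 batches at Day 12 and at Day 14. ISL1 is a LIM-homeodomain transcription factor, and the study asked what its loss does to the embryo at these stages. Mutants were made by injecting zygotes with Cas9 and guide RNAs against ISL1, which leaves a mosaic of edits within each embryo.

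No injected wild-type embryos are described, so injection and genotype cannot be told apart. Each library pooled 1 to 3 embryos, and both mutant batch 2 libraries (Day 12 and Day 14) came from 1 embryo each. The labels number the batches of each genotype and do not say whether the same number marks embryos collected together. The summed ISL1 level in Day 14 amnion-like cells was 133 and 229 CPM in wild type and 142 and 193 CPM in mutants, which overlap, and 3' tags outside the deleted part of the gene do not check the edit.

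IGFs act through the IGF1 receptor on growth and survival, and a family of binding proteins holds them in the extracellular space, where it can limit or prolong their access to the receptor. IGFBP2 binds IGF1 and IGF2, also carries an integrin-binding motif, and is widely made in the embryo and fetus, whereas IGFBP6 prefers IGF2. The pregnancy-associated plasma proteins cut some binding proteins and so release IGF, and the stanniocalcins STC1 and STC2 inhibit that cleavage. The libraries measured RNA and not the secreted proteins.

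The libraries held 33330 cells and 36654977 to 164808415 corrected unique molecular identifiers (UMIs) each, with median UMIs per cell from 10916 to 142180, lowest in mutant Day 14 batch 1. Cells were clustered within each day and clusters were named from marker genes as Epi-derived-like (3040 cells), endoderm-like (489 cells), extraembryonic mesenchyme-like (ExE-Mech-like, 6543 cells) or trophoblast-like (22357 cells). The 7 IGF genes that had an identifier were left out of the clustering features and the marker lists. The 10 leading genes of a cluster, which the naming also used, could include them. The 8 Epi-derived markers, POU5F1 and NANOG among them, summed to 6467 to 20740 CPM in Epi-derived-like cells of each library, against 71.9 to 298 CPM in trophoblast-like cells. ExE-Mech-like cells were found in 8 libraries, and cells of unnamed clusters were 33.1% and 35.7% of the wild-type Day 10 libraries against at most 5.85% elsewhere. A level, here and above, is the share of a class's summed UMIs in 1 library that belongs to the gene, in CPM (10000 CPM is 1% of UMIs), and levels are compared between classes and libraries for 1 gene at a time.

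At Day 10, IGFBP2 in Epi-derived-like cells stood at 354 CPM in wild-type batch 1, 498 CPM in batch 2 and 318 CPM in the mutant library. IGFBP6 stood at 572 and 534 CPM in the wild-type libraries and at 95.9 CPM in the mutant library. The mutant library lay well below both wild-type libraries for IGFBP6 and close to the lower of them for IGFBP2, with 1 mutant library and no test.

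Within the Day 10 Epi-derived-like cells, both genes were higher in Epi-like clusters than in mesoderm-like clusters. IGFBP2 was 385 and 554 CPM in wild-type Epi-like cells against 240 and 236 CPM in mesoderm-like cells, and 351 against 105 CPM in the mutant. IGFBP6 was 698 and 613 CPM against 91.4 and 170 CPM in wild type, and 110 against 6.29 CPM in the mutant. One Epi-like cluster carried IGFBP6 well above the others, at 1037 and 1153 CPM in the wild-type libraries, and its mutant cells (22 cells) were at 209 CPM. The other 4 Epi-like clusters held IGFBP6 between 367 and 601 CPM in wild type and between 51.1 and 145 CPM in the mutant. The mutant library was thus lower in each of the 5 clusters, which are parts of the same mutant library and no separate evidence. IGFBP6 was the leading gene of the cluster where it was highest, the kind of level on which the genes were chosen. These levels are therefore only a description.

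**Figure D1:**
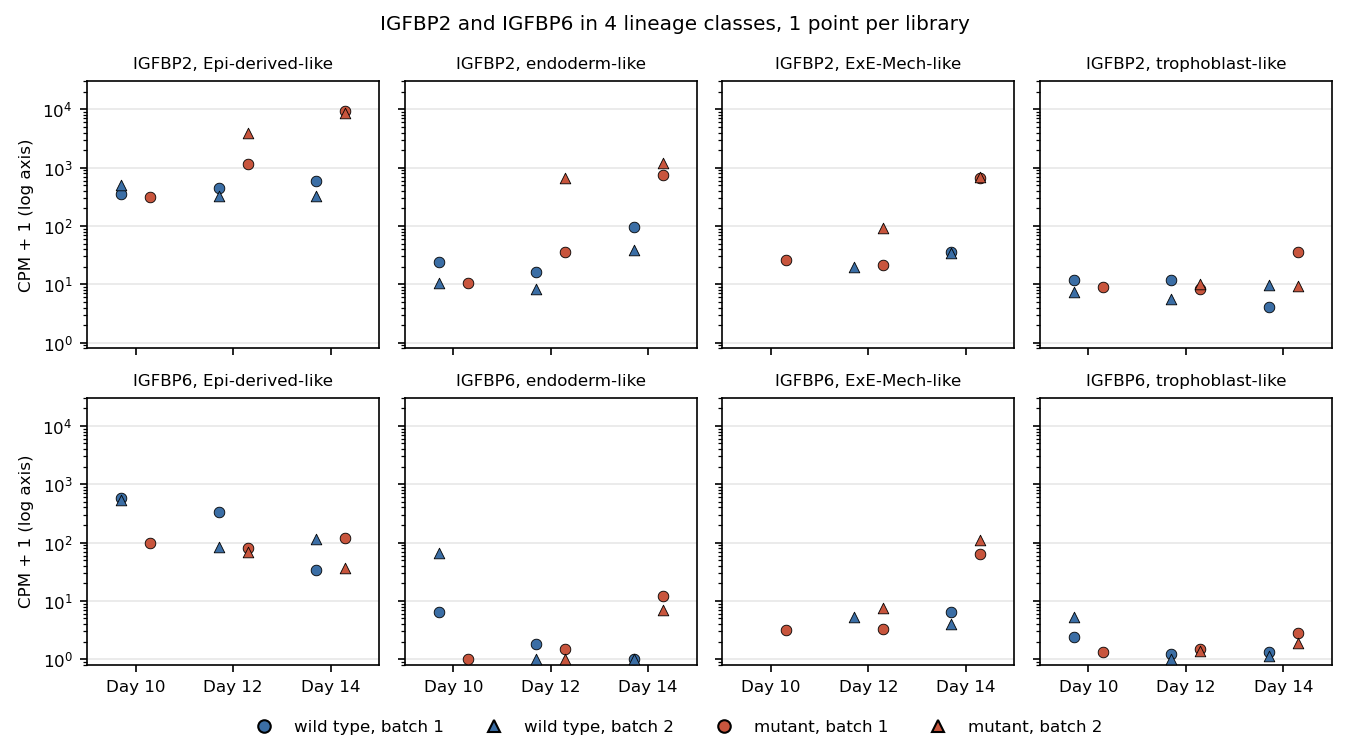
Level of IGFBP2 (top) and IGFBP6 (bottom) in CPM + 1, on a log axis, in each lineage class by day, with 1 point per library, blue for wild type and red for ISL1 mutant, circles for batch 1 and triangles for batch 2 of that genotype. IGFBP2 stood at 9356 and 8774 CPM in Epi-derived-like cells of the 2 mutant Day 14 libraries, against 328 and 591 CPM in wild type, while IGFBP6 of the same cells lay between 32.4 and 120 CPM in all 4 libraries.

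The genes were chosen on Day 10 levels, and the lineage pattern was tested in the Day 12 and Day 14 libraries. Their identifiers came through tables made from these same libraries, and the naming rule was written after their levels per cluster had been seen. The test is therefore not independent of the choice. IGFBP2 was higher in Epi-derived-like than in trophoblast-like cells by 7.26 on the log2 scale (SE 0.62, adjusted p = 2.34e-06, edgeR's quasi-likelihood test with the library as a block, 8 libraries), and IGFBP6 by 7.40 (SE 0.64, adjusted p = 2.42e-06, edgeR). In that comparison 55.3% of genes tested were called at a false discovery rate of 1%, 27.6% as higher and 27.7% as lower in Epi-derived-like cells, so the call sets neither gene apart. The median log2 difference over all genes tested was -0.01. Within single libraries of these days the IGFBP2 ratio of the 2 classes was 37.2 to 193 in wild type and 158 to 1034 in mutants. The fitted 7.26 averages over both genotypes.

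Trophoblast-like cells held IGFBP2 at 3.06 to 35.0 CPM and IGFBP6 at 0 to 4.31 CPM over the 11 libraries. Their highest IGFBP2 level was that of mutant Day 14 batch 1, in which the correction for ambient RNA had removed 8.77% of UMIs, the largest share of any library. The part of ambient RNA in that level was not tested. IGFBP6 was at 0 of 27021566 UMIs in the trophoblast-like cells of wild-type Day 12 batch 2, which allows up to 0.111 CPM. Intervals and limits cover counting error only.

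Against endoderm-like cells, Epi-derived-like cells were higher by 3.68 for IGFBP2 (log2, SE 0.32, adjusted p = 1.38e-06, edgeR) and by 6.13 for IGFBP6 (SE 0.52, adjusted p = 1.16e-06, edgeR), where 41% of genes tested were called, 20.4% as higher and 20.6% as lower. IGFBP6 was at 0 UMIs in endoderm-like cells of both wild-type Day 14 libraries and of both Day 12 batch 2 libraries. The size of 6.13 thus rests on endoderm-like counts at or near 0 and is uncertain. Within libraries the IGFBP6 ratio was 10.9 and 5.99 in the Day 14 mutants. It was 407 and 160 in the wild-type and mutant Day 12 batch 1 libraries. Both genes were higher in Epi-derived-like than in endoderm-like cells of 11 of 11 libraries, Day 10 included as a description. Against ExE-Mech-like cells the difference was 4.32 for IGFBP2 (SE 0.33, adjusted p = 4.05e-06, edgeR, 7 libraries), where 46.2% of genes were called, 23.6% as higher and 22.6% as lower. IGFBP6 differed by 2.90 (SE 0.85) and was not called at 1% (adjusted p = 0.0145, edgeR). Within libraries the IGFBP6 ratio of the 2 classes was 1.89 in mutant Day 14 batch 1 and 0.329 in mutant Day 14 batch 2. It was 5.84 to 37.7 in the other libraries of the fit, so the fitted 2.90 averages over unlike libraries. In mutant Day 14 batch 2, IGFBP6 reached 35.5 CPM in Epi-derived-like cells but 108 CPM in the mesenchyme-like ones. Without that library the difference was 3.47 (adjusted p = 0.00107, edgeR).

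At Day 14, IGFBP2 in Epi-derived-like cells stood far higher in both mutant libraries than in either wild-type library. It was at 591 and 328 CPM in the 2 wild-type libraries, and at 9356 and 8774 CPM in the 2 mutant libraries. The groups did not overlap, with means of 459 ± 187 CPM in wild type and 9065 ± 411 CPM in mutants (SD, n = 2 each). With 2 libraries in each group, a lack of overlap can easily arise by chance, here and below. Its share over all genes was not counted. A sum alone cannot tell apart fewer cells that carry a transcript and less of it in each cell, and values of single cells are given further on. The fitted difference was 4.33 on the log2 scale (SE 0.57), with an adjusted p of 0.0112 by edgeR, just outside the 1% threshold. Only 0.0889% of the 12368 genes tested passed it, 9 higher (0.0728%) and 2 lower (0.0162%) in mutants, and the median log2 difference over all genes was 0.04.

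The call of IGFBP2 changed with the method. It passed with uncorrected counts (4.30, adjusted p = 0.00988, edgeR), without cells marked as doublets (4.33, adjusted p = 0.00899, edgeR), without a filter on low counts and with DESeq2 (4.16, adjusted p = 4.42e-15). It did not pass when any 1 of the 4 Day 14 libraries was left out, with log2 differences from 3.92 to 4.86 and adjusted p from 0.0412 to 0.0786 by edgeR.

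Epi-derived-like cells were a different mixture in the genotypes at Day 14, with mesoderm-like cells at 58.6% and 67.3% of them in wild type against 10.7% and 9.68% in mutants, and amnion-like cells at 7.39% and 14.2% against 52.1% and 54.8%. The ExE-Mech markers summed to 43.8 and 88.4 CPM in the wild-type and to 485 and 377 CPM in the mutant Epi-derived-like cells, and their part was not tested. Within each type both mutant libraries stood above both wild-type libraries for IGFBP2. In Epi-like cells it was 1019 and 316 CPM in wild type against 15225 and 11783 CPM in mutants, where it made up 1.52% and 1.18% of all UMIs of the class. The difference was 4.37 (SE 0.66, adjusted p = 0.0113, edgeR), again outside 1%, in a comparison that called 0.156% of genes, 0.147% as higher and 0.00919% as lower in mutants. It was 5.58 without wild-type batch 1 and 3.72 without wild-type batch 2, neither of them called.

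All Day 14 Epi-like cells came from 1 cluster that both genotypes shared, with 193 and 21 wild-type and 180 and 33 mutant cells. Their Epi marker sum was 2750 and 3037 CPM in wild type and 3126 and 2192 CPM in mutants, with 8 of 8 markers detected in each. The trophoblast marker sum in them was 262 and 209 CPM in wild type and 577 and 322 CPM in mutants. The amnion marker sum was 338 and 368 CPM in wild type and 632 and 652 CPM in mutants, and the mesoderm marker sum 264 and 245 CPM against 283 and 326 CPM. These 3 sums did not overlap between the genotypes. Trophoblast-like cells held IGFBP2 at 3.06 to 35.0 CPM, and the part of the 3 sums in the IGFBP2 difference was not tested.

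**Figure D2:**
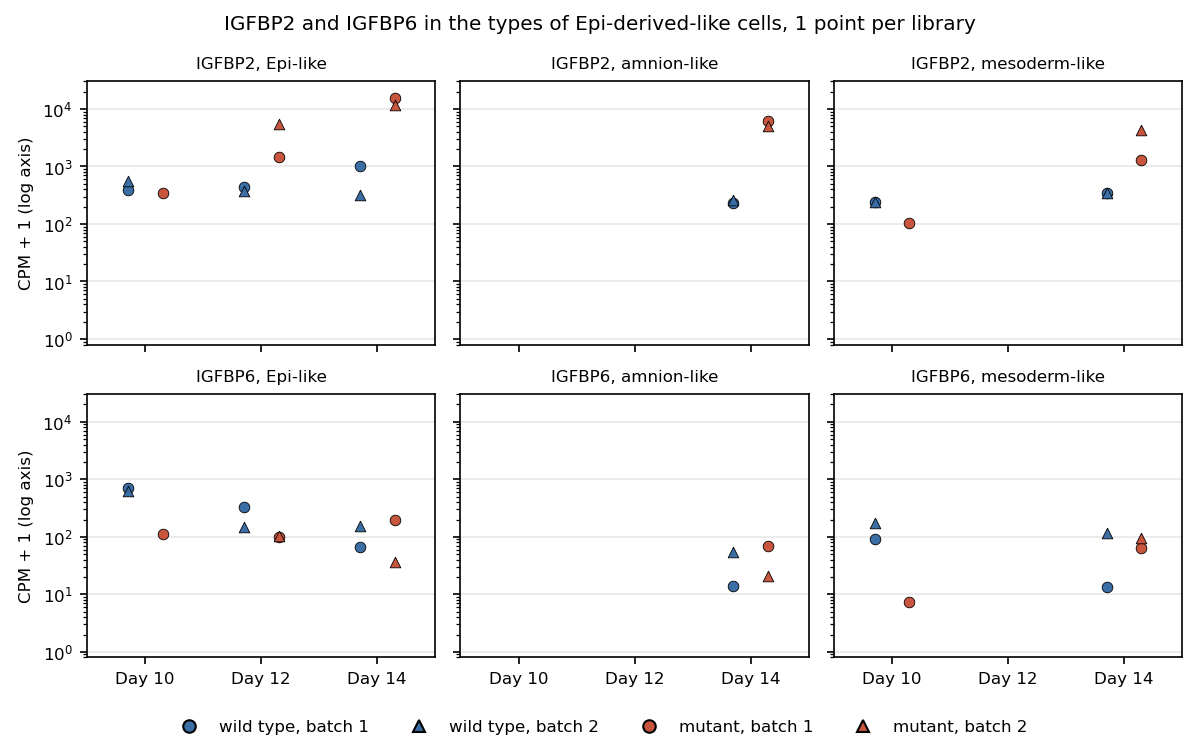
Level of IGFBP2 (top) and IGFBP6 (bottom) in CPM + 1, on a log axis, in Epi-like, amnion-like and mesoderm-like cells by day, with 1 point per library, blue for wild type, red for mutant, circles for batch 1 and triangles for batch 2. At Day 14 the mutant points of IGFBP2 lie above the wild-type points in all 3 types, and those of IGFBP6 overlap them in each type.

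In amnion-like cells, IGFBP2 was 231 and 261 CPM in wild type and 6083 and 5110 CPM in mutants. The difference of 4.66 (SE 0.34) passed the 1% threshold (adjusted p = 0.00601, edgeR), as 1 of 2 genes called among 7423 tested (0.0269%). This fit rested on 4 sums and 2 residual degrees of freedom, and its call did not hold under each way of defining the cells. Most amnion-like cells of mutant batch 1 (188 of 252) lay in a cluster that held 99.5% cells of that library and had no amnion marker among its 10 leading genes, which were IGFBP5, IGFBP2 and COX4I2 first. Its cells were shallow, with a median of 4570 UMIs, which is 0.42 of the median of their library, while the median amnion-like cell had 29470 and 18160 UMIs in wild type and 4916 and 12690 UMIs in mutants. Without clusters made up almost wholly of 1 library, mutant batch 1 was at 2069 CPM, and the difference was 3.99 (adjusted p = 0.0451, edgeR).

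The amnion result also depended on the names of clusters, which were revised after the levels of both genes had been seen. The revision removed an amnion name from 1 Day 12 cluster whose leading genes were of another type, and with the first names, which bring Day 12 libraries into the fit, the difference was 4.65 (adjusted p = 0.0244, edgeR). With clusters made without integration it was 4.54 (adjusted p = 0.109, edgeR), but only 2 amnion-like cells of wild-type batch 2 were then found, so that wild type was 1 library of 28 cells. ISL1 is itself 1 of the 10 amnion markers. The ExE-Mech markers summed to 160 and 56.5 CPM in the wild-type amnion-like cells (6 and 3 of 8 detected) and to 818 and 580 CPM in the mutant ones (8 of 8 in both). The mesoderm markers summed to 449 and 1058 CPM in the wild-type and to 127 and 161 CPM in the mutant cells, and the part of both lists in the IGFBP2 difference was not tested.

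Mesoderm-like cells held IGFBP2 at 347 and 343 CPM in wild type and at 1272 and 4262 CPM in mutants, with 52 and 9 mutant cells, and were not tested. The ExE-Mech markers in them summed to 39.3 and 51.8 CPM in wild type and to 362 and 1768 CPM in mutants. Their own mesoderm markers summed to 2668 and 1358 CPM in wild type and to 1082 and 442 CPM in mutants, with TBXT at 0 in both mutant libraries, so the mesoderm name is weak for the mutant cells, above all for the 9 cells at 4262 CPM. The amnion marker sum in them was 783 and 718 CPM against 1203 and 1562 CPM, and the part of these markers in the IGFBP2 level was not tested. Cells of all 4 Day 14 libraries lay together in 3 Epi-derived-like clusters. These were the whole Epi-like class, the whole mesoderm-like class and the amnion-like cluster that both genotypes shared. In 3 of 3 both mutant libraries were above both wild-type libraries for IGFBP2, with mean levels 8.02 to 20.2 times as high. That count restates the levels by type in the same 4 libraries, the 9 weakly named cells included, and is no separate evidence.

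IGFBP6 did not follow IGFBP2 in these cells. In Day 14 Epi-derived-like cells it was 32.4 and 114 CPM in wild type and 120 and 35.5 CPM in mutants, so the 2 genotypes covered the same range. The fitted difference was 0.15 (SE 0.72, adjusted p = 0.930, edgeR). In Epi-like cells it was 0.20 (SE 0.59, adjusted p = 0.910, edgeR) and in amnion-like cells 0.91 (SE 0.76, adjusted p = 0.521, edgeR). With standard errors of this size even a large difference in either direction could go without a call. IGFBP2 at 4.33 (SE 0.57) was itself not called in the same Epi-derived-like fit.

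**Figure D3:**
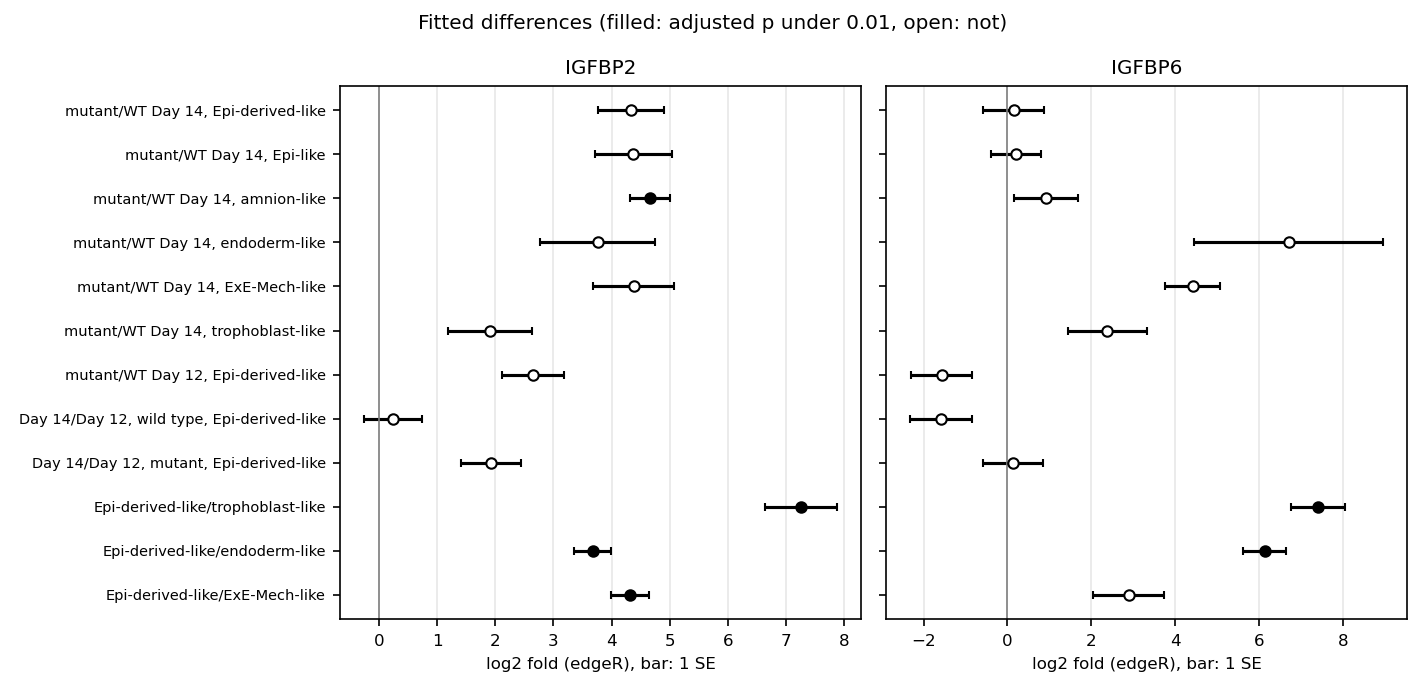
Fitted log2 differences of IGFBP2 (left) and IGFBP6 (right) from edgeR in the 12 comparisons, with bars of 1 standard error, filled where the adjusted p was under 0.01. All 6 mutant against wild-type values of IGFBP2 at Day 14 lie above 0, from 1.91 to 4.66, and only the amnion-like one is filled, while the lineage differences at the bottom are filled for both genes except IGFBP6 against ExE-Mech-like cells. The IGFBP6 value in endoderm-like cells rests on wild-type sums of 0 and is no measured fold. The IGFBP6 lineage value against endoderm-like cells rests on endoderm-like counts at or near 0.

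Outside the Epi-derived-like cells, both genes stood higher in the ExE-Mech-like cells of each Day 14 mutant library than of either wild-type library. IGFBP2 in ExE-Mech-like cells was 35.3 and 33.4 CPM in wild type and 660 and 679 CPM in mutants. IGFBP6 was 5.55 and 3.02 CPM in wild type and 63.8 and 108 CPM in mutants. Neither gene's groups overlapped, and the share of all genes without overlap was not counted. The fitted differences of 4.38 for IGFBP2 (SE 0.70, adjusted p = 0.116, edgeR) and 4.41 for IGFBP6 (SE 0.65, adjusted p = 0.0849, edgeR) were not called, in a comparison in which edgeR called 0 genes (0%) and 2175 of 12803 genes had an unadjusted p under 0.05. DESeq2 called 210 genes there, with IGFBP2 (4.35, adjusted p = 1.16e-11) and IGFBP6 (4.38, adjusted p = 3.72e-11) among them.

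Cells of all 4 Day 14 libraries lay together in 4 ExE-Mech-like clusters, and in 4 of 4 both genes were higher in each mutant library than in each wild-type library. That count divides the same 4 libraries and is no separate evidence. The mean levels were 6.25 to 19.6 times as high for IGFBP2 and 12.4 to 28.8 times as high for IGFBP6. Wild-type batch 1 had only 6 cells in 1 of these clusters and 5 in another. The ratio of 28.8 came from the cluster with 6 such cells, whose IGFBP6 level was 0 CPM. The ratio of 19.6 rested mostly on 1 library, with mutants at 28.6 and 540 CPM against 16.35 and 12.7 CPM in wild type. A further 6 ExE-Mech-like clusters were made up almost wholly of 1 mutant library, and without them IGFBP2 in mutant batch 1 was 213 instead of 660 CPM, still above the 36.0 and 31.9 CPM of wild type. IGFBP6 in that library was then 25.5 instead of 63.8 CPM, against 5.32 and 2.97 CPM in wild type. The 8 Epi-derived markers in this class summed to 86.0 and 68.4 CPM for wild type and to 88.1 and 82.8 CPM for mutants, with 8 of 8 detected in each library. The ranges of that marker sum overlapped between the genotypes. The ExE-Mech markers themselves summed to 3226 and 6215 CPM in wild type and to 7381 and 11820 CPM in mutants without overlap, and their part in the differences was not tested.

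Endoderm-like cells held IGFBP2 at 96.7 and 37.9 CPM in wild type and at 759 and 1222 CPM in mutants at Day 14, from 48, 35, 109 and 11 cells. In mutant batch 1, 29 of the 109 cells lay in a cluster of that library alone with a median of 4634 UMIs, 0.42 of the library's median, and without it the level was 268 instead of 759 CPM. The difference of 3.76 (SE 0.99) was not called (adjusted p = 0.452, edgeR), and edgeR called 0 genes (0%) there, with 688 of 9778 genes at an unadjusted p under 0.05, against 14 called by DESeq2. The Epi-derived markers summed to 454 and 217 CPM in these wild-type cells and to 749 and 1002 CPM in the mutant cells, and the amnion markers to 1588 and 1547 CPM against 3000 and 3558 CPM. Both sums moved with IGFBP2, and their part was not tested. IGFBP6 was at 0 UMIs in both wild-type libraries and at 9 and 1 UMIs in the mutants. Over the group the mutant level was 10.2 CPM, 9.59 times the limit of 1.06 CPM for 3 UMIs in the summed wild-type cells. That ratio leaves out the counting error of the mutants and the spread between libraries, so it is no lower bound. The IGFBP6 difference was not called (adjusted p = 0.610, edgeR).

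In trophoblast-like cells, IGFBP2 was 3.06 and 8.81 CPM in wild type against 35.0 and 8.48 CPM in mutants at Day 14, and the groups overlapped (log2 difference 1.91, SE 0.73, adjusted p = 0.307, edgeR). It was 0.65 without mutant batch 1 and 2.71 without wild-type batch 2. IGFBP6 was 0.340 and 0.116 CPM against 1.80 and 0.922 CPM (2.38, SE 0.95, adjusted p = 0.329, edgeR), or 1.90 to 3.61 with 1 library left out. Here edgeR called 0 genes (0%), with 2035 of 14903 genes at an unadjusted p under 0.05, and DESeq2 called 244. The Epi-derived markers in these cells summed to 91.8 and 77.5 CPM in wild type and to 142 and 100 CPM in mutants. The endoderm markers summed to 63.5 and 12.4 CPM against 213 and 86.2 CPM. Sums of the ExE-Mech and trophoblast markers overlapped between the genotypes, and the part of these markers was not tested.

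At Day 12, IGFBP2 in Epi-derived-like cells was 445 and 330 CPM in wild type and 1151 and 3972 CPM in mutants. Both mutant libraries were above both wild-type libraries, and they stood far apart from each other. The fitted difference of 2.65 (SE 0.53) was not called (adjusted p = 0.270, edgeR), where 0.00809% of genes were called, which is 1 gene. It was 1.56 without mutant batch 2 and 3.27 without mutant batch 1, and the 339 cells of mutant batch 1 in an Epi-like cluster with 94.4% cells of that library were at 1826 CPM, so that without them its Epi-derived-like level was 634 instead of 1151 CPM and its Epi-like level 917 instead of 1483 CPM. The trophoblast markers in the Day 12 class summed to 237 and 360 CPM in wild type and to 731 and 764 CPM in mutants, and the amnion markers to 297 and 579 CPM against 606 and 1282 CPM, and their part was not tested.

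Mutant batch 2 at Day 12 also held more IGFBP2 than the other libraries of its day in endoderm-like and ExE-Mech-like cells, but not in trophoblast-like cells, where it was at 9.27 CPM against 10.8 CPM in wild-type batch 1. Its 25 endoderm-like cells stood at 668 CPM, against 35.3 CPM in mutant batch 1 and 15.5 and 7.41 CPM in the wild-type libraries. Its ExE-Mech-like cells stood at 92.9 CPM, against 20.8 CPM in mutant batch 1 and 18.8 CPM in the 1 wild-type library that held such cells.

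From Day 12 to Day 14, IGFBP2 in Epi-derived-like cells went from 445 and 330 CPM to 591 and 328 CPM in wild type, a log2 difference of 0.25 (SE 0.50, adjusted p = 0.933, edgeR). In mutants it went from 1151 and 3972 CPM to 9356 and 8774 CPM, and the groups did not overlap, with a difference of 1.93 (SE 0.52) that was not called (adjusted p = 0.106, edgeR). It was 1.31 without mutant Day 12 batch 1 and 3.02 without mutant Day 12 batch 2, neither of them called. In wild type edgeR called 0 genes (0%), with 988 of 12368 genes at an unadjusted p under 0.05 and 5 called by DESeq2, and in mutants it called 7 genes (0.0566%). The difference between genotypes at Day 14 minus that at Day 12 was 1.68 (SE 0.71), which did not pass its own test (adjusted p = 0.553, edgeR), in which 0 of 12368 genes passed (0%) and 1072 had an unadjusted p under 0.05. The mutant class also changed between the days. Its amnion markers went from 606 and 1282 CPM to 2787 and 2968 CPM. Its ExE-Mech markers went from 80.1 and 144 CPM to 485 and 377 CPM, and the part of both lists was not tested.

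**Figure D4:**
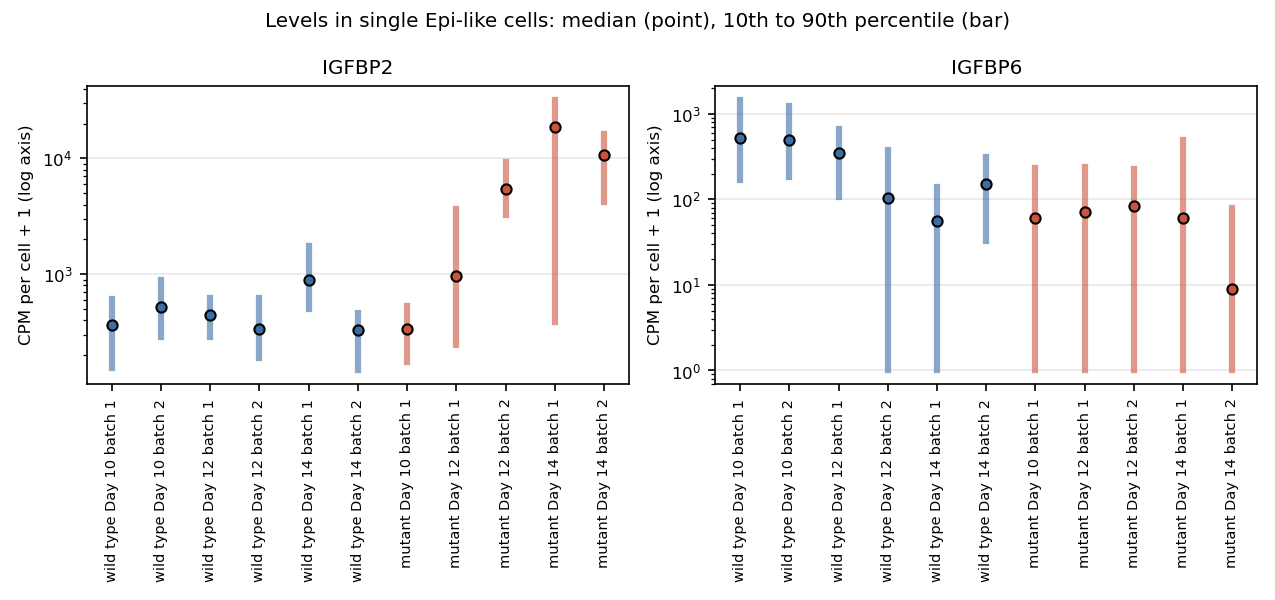
Level of IGFBP2 (left) and IGFBP6 (right) per Epi-like cell in CPM + 1, on a log axis, in each library, with a point for the median cell and a bar from the 10th to the 90th percentile, blue for wild type and red for mutant. The median mutant cell reached 18630 and 10650 CPM of IGFBP2 at Day 14, and the bar of mutant Day 14 batch 1 reaches down to the wild-type range.

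In wild type, the Epi-derived-like level of IGFBP6 began at 572 and 534 CPM on Day 10, was 332 and 84.3 CPM on Day 12, and ended at 32.4 and 114 CPM on Day 14, so that both Day 10 libraries were above the 4 later ones. The test over the later days gave -1.59 (SE 0.73, adjusted p = 0.642, edgeR) and made no call. It was -0.15 without wild-type Day 12 batch 1 and -2.70 without wild-type Day 14 batch 2. The Day 10 mutant library was at 95.9 CPM, the Day 12 libraries at 79.4 and 68.5 CPM, and those of Day 14 at 120 and 35.5 CPM, with a difference of 0.13 between the later days (SE 0.72, adjusted p = 0.949, edgeR). At Day 12 the mutant minus wild-type difference was -1.57 (SE 0.73, adjusted p = 0.495, edgeR), with wild-type batch 1, from 14 cells, at 332 CPM and the other 3 libraries between 68.5 and 84.3 CPM. Without that library it was -0.11. The class was also a different mixture in each Day 12 library, with Epi-like cells at 100% and 45.6% of it in wild type and at 69.2% and 35.5% in mutants. Within the Epi-like cells of that day IGFBP6 was 332 and 148 CPM in wild type and 98.0 and 102 CPM in mutants, which was not tested.

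The single cells showed how widely each gene was spread through a class. With every cell thinned to 10000 UMIs, and 505 of 3040 shallower Epi-derived-like cells left out, 86.9% to 100% of the Epi-derived-like cells of a library had an IGFBP2 UMI, and 95.5% to 100% did without thinning. Of the cells left out, 326 came from mutant Day 14 batch 1, which kept 158 of its 484. At most 22 came from any wild-type library. In trophoblast-like cells, which served as the class that should lack the gene, the share was 2.14% to 11.7% thinned (4018 of 22357 cells left out) and 7.28% to 38.8% unthinned. Median depths ran from 6766 to 136200 UMIs in the first class and from 11350 to 144600 UMIs in the second.

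IGFBP6 was detected in fewer wild-type cells at Day 14 than at Day 10. The thinned share of Epi-derived-like cells with an IGFBP6 UMI was 84.9% and 92.0% in the wild-type libraries of Day 10, 85.7% and 35.2% in those of Day 12, and 20.3% and 54.9% in those of Day 14. Mutants gave 44.5% on Day 10, then 44.8% and 43.4% on Day 12, and finally 36.1% and 21.7% on Day 14. The 36.1% rests on the 158 of 484 cells deep enough to be thinned. These shares, too, are over classes of unlike mixture. The trophoblast-like share was at most 4.62% in any library, so each Epi-derived-like share lay above that background.

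Single Epi-like cells of the mutant Day 14 libraries spread over a wide range of IGFBP2. The 10th and 90th percentiles of IGFBP2 per cell were 499 and 1748 CPM in wild-type batch 1 and 147 and 460 CPM in batch 2, around medians of 898 and 327 CPM. They were 385 and 32230 CPM in mutant batch 1 and 4207 and 16280 CPM in mutant batch 2, around medians of 18630 and 10650 CPM. Some mutant batch 1 cells thus lay in the wild-type range, from cells with a median of 8139 UMIs against 31790 UMIs in batch 2. At that depth such a level is only a few UMIs per cell, and what sets these cells apart was not tested.

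In ExE-Mech-like cells at Day 14, the thinned share with an IGFBP2 UMI was 20.6% and 17.8% in wild type and 37.2% and 78.2% in mutants. Thinning left out 1197 of the 2483 cells of mutant batch 1 (median 10270 UMIs), 43 of 1063 in mutant batch 2, and 0 and 7 in the wild-type libraries. That with an IGFBP6 UMI was 6.88% and 2.33% in wild type and 26.7% and 53.4% in mutants. Unthinned, the IGFBP2 shares were 42.5% and 27.4% against 59.0% and 85.0%, and the IGFBP6 shares were 23.1% and 6.29% against 38.9% and 70.6%. Mutant shares were higher for both genes on either count, with thinned trophoblast-like shares of the mutant libraries at 7.77% and 6.61% for IGFBP2 and at 1.26% and 0.618% for IGFBP6.

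Rank correlation of IGFBP2 with IGFBP6 over single Epi-like cells ranged from -0.12 to 0.38 in 10 libraries, on cells that share library and depth, and is given as a description. Over 41 sums of library and lineage class, log2 levels of the 2 genes had a Pearson correlation of 0.71, with both genes low in the other lineages. Over the 11 Epi-derived-like sums alone the correlation was -0.43.

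The list of IGF system genes held 20 genes, of which 7 had an identifier, and the ligands, receptors and adaptors on it were not analysed here. IGFBP5, a binding protein often found with extracellular matrix, was called higher in mutant Day 14 Epi-derived-like cells by 5.09 (SE 0.52, adjusted p = 0.00488, edgeR), the only call among the 7 listed genes there, where 0.0889% of all genes tested were called. It was at 7.82 and 14.1 CPM in wild type and at 472 and 225 CPM in mutants, and it was also called higher at Day 14 than at Day 12 in mutants (4.35, adjusted p = 0.00824, edgeR). The first call was lost without mutant Day 14 batch 1, and the second without mutant Day 12 batch 1 or without mutant Day 14 batch 2, where 0 genes were called by edgeR. Values of IGFBP5 were not kept for the other alternatives, so whether its calls held there is not known. IGFBP5 was also the leading gene of the amnion-like cluster with 99.5% cells of mutant batch 1. The 7 genes had a median log2 difference of 3.34 between genotypes against 0.04 over all genes. They have identifiers because the study's tables of marker genes and of differences between genotypes, made from these same libraries, name them, so neither this median nor the counts over the 7 are independent evidence of a direction.

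IGFBP3, the main carrier of IGF in serum, was at 27.3 and 9.24 CPM in wild type and at 205 and 177 CPM in mutants (3.34, SE 0.64, adjusted p = 0.0257, edgeR). STC2 was at 8.60 and 2.96 CPM against 71.0 and 98.5 CPM (3.74, SE 0.59, adjusted p = 0.0178, edgeR), and STC1 at 10.7 and 3.33 CPM against 41.5 and 74.1 CPM (2.92, SE 0.56, adjusted p = 0.0265, edgeR). IGFBP4 went the other way, at 127 and 174 CPM in wild type and 55.3 and 36.7 CPM in mutants (-1.67, SE 0.28, adjusted p = 0.0192, edgeR). None of the 4 genes was called at 1%. Their groups did not overlap, but the share of all genes without overlap was not counted, so this adds no evidence.

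The types of Epi-derived-like cells gave different values for IGFBP3 and IGFBP5, and the difference between types was not tested. In Epi-like cells IGFBP3 differed by -0.59 (SE 0.61, adjusted p = 0.690, edgeR) and IGFBP5 by 2.41 (SE 0.58, adjusted p = 0.0695, edgeR), and in amnion-like cells by 3.69 (adjusted p = 0.0569, edgeR) and 3.88 (adjusted p = 0.0168, edgeR). ExE-Mech marker genes also summed higher in the mutant Day 14 Epi-derived-like class, at 485 and 377 CPM against 43.8 and 88.4 CPM in wild type with 8 of 8 detected in each, and their part in the values of these genes was not tested. In Epi-like cells alone that sum was 191 and 28.6 CPM in mutants and 35.3 and 229 CPM in wild type, with overlapping groups.

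**Figure D5:**
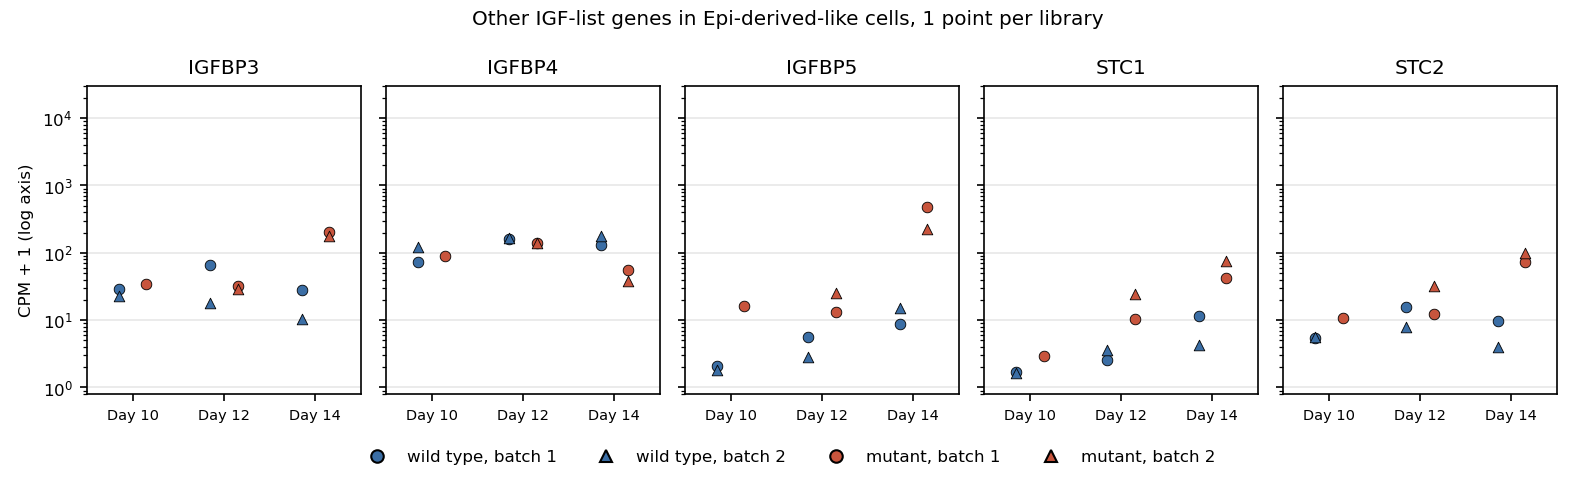
Level of the 5 other IGF-list genes with an identifier in Epi-derived-like cells by day, in CPM + 1 on a log axis, with 1 point per library, blue for wild type, red for mutant, circles for batch 1 and triangles for batch 2. At Day 14 the mutant points lie above wild type for IGFBP3, IGFBP5, STC1 and STC2 and below it for IGFBP4, with IGFBP5 at 472 and 225 CPM in mutants.

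Across lineages at Day 12 and Day 14, the listed genes divided. The counts include IGFBP2 and IGFBP6, which were chosen for high Epi-derived levels, and all 7 carry identifiers through tables drawn from these data, so the shares over all genes beside them are no even background. Against trophoblast-like cells 5 of the 7 were higher in Epi-derived-like cells (27.6% of all genes were) and none lower, with IGFBP3 and STC2 not called. Against endoderm-like cells 6 were higher (20.4% of all genes) and IGFBP5 was lower (-2.36, SE 0.67, adjusted p = 0.00982, edgeR). Against ExE-Mech-like cells 3 of the 7, IGFBP2, IGFBP4 and STC2, were higher (23.6% of all genes) and IGFBP3 was lower (-4.61, SE 0.40, adjusted p = 9.12e-06, edgeR), at 185 to 4447 CPM in the mesenchyme-like cells of those days.

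The genes whose levels were most like each member over the 41 sums were ranked among 742 candidates with a symbol, leaving out markers and IGF genes. For IGFBP2 they were COX4I2 (Pearson correlation 0.91), BEND5 (0.89), NREP (0.89), MGARP (0.87) and GAPDH (0.87). COX4I2 encodes an isoform of a subunit of cytochrome c oxidase and ranged from 5.82 to 301 CPM in Epi-derived-like cells, and GAPDH, a glycolytic enzyme, from 3346 to 11420 CPM. Over the 11 Epi-derived-like sums alone the correlation with IGFBP2 was 0.94 for COX4I2 and 0.93 for GAPDH but 0.49 for NREP.

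For IGFBP6 the most alike were TUBB2B (0.87), NNAT (0.85), ENO3 (0.83), PSIP1 (0.81) and TMX4 (0.81). NNAT, an imprinted gene, was at 82.4 to 259 CPM in Epi-derived-like cells and at 0 to 2.43 CPM in endoderm-like cells. Within the 11 Epi-derived-like sums its correlation with IGFBP6 was -0.51, that of ENO3 was -0.40, that of PSIP1 was -0.41, that of TMX4 was 0.24 and that of TUBB2B was 0.47, so 3 of the 5 were negative there. The points share libraries and depth, and the correlations are descriptions.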

How the data were processed

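The authors deposited a matrix of raw UMI counts and a matrix of expected counts, the latter corrected for ambient RNA with SoupX after Cell Ranger 3.1.0 (per the labels). All corrected values were whole numbers as deposited. The matrix held 19367 genes, 1020 of them paired with a symbol through the supplementary tables. Both genes and all lists were chosen with earlier results of these data known. IGFBP2, IGFBP6, the other IGF-list genes and the 5 genes of most like pattern for each of the pair are named.

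Cells were clustered per day with Seurat 5.3.0 (5000 features, 30 dimensions, resolution 0.8, the 7 IGF-list genes with an identifier left out). Clusters were named from marker lists by a rule written after marker scores and the levels of both genes per cluster had been seen. It was then revised to follow leading genes, after levels per library had been seen and before any test, and the first version was kept as an alternative. Scrublet marked 0.103% to 2.29% of cells per library as doublets, and none were removed. Libraries shared at most 0.52% of barcodes.

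UMIs were summed per library and class (at least 5 cells) and tested with edgeR 4.0.16 (two-sided quasi-likelihood test, TMM), and calls were made at 1% after Benjamini-Hochberg adjustment over all genes tested, with DESeq2 1.42.0 as an alternative. Contrasts are within Day 12 and Day 14, but the Day 10 libraries, whose levels chose the genes, entered the genotype and day fits of classes found at Day 10 and so their shared estimate of the spread (Epi-derived-like: 11 sums, 5 residual degrees of freedom). The lineage fits held no Day 10 library. P-values measure the spread between libraries of 1 to 3 embryos. The pipeline was tested on simulated data. Alternatives added after seeing the data were the first cluster names, leaving out clusters with at least 90% of cells from 1 library, leaving out doublets and a replicate block within genotype.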

Additional observations from a re-analysis of the deposited data

How the results depend on the processing

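Of 498 alternatives, 402 were counted as unchanged, which for a gene means the same direction and side of the threshold and for a number of calls one close to that reported. All tests of the lineage differences against trophoblast-like and endoderm-like cells were among these. Some of the 402 could not change, as the first cluster names left Epi-derived-like, Epi-like, endoderm-like and ExE-Mech-like cells as they were. A gene that stayed uncalled counted as unchanged however far its size moved, so the tally is no measure of stability. Values are numbers of genes called, or log2 differences where a gene is named. The cause of the changes was not tested.

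With uncorrected counts 20 genes were called in Day 14 Epi-derived-like cells, and IGFBP2 (4.30) passed. Without a filter on low counts the calls were 1080 in Epi-derived-like, 348 in Epi-like, 497 in amnion-like, 120 in endoderm-like, 128 in ExE-Mech-like and 1 in trophoblast-like cells at Day 14, 340 at Day 12, 171 between days in wild type and 575 in mutants. IGFBP2 then passed at 4.23, 4.31, 3.69 and 4.33 in Epi-derived-like, Epi-like, endoderm-like and ExE-Mech-like cells, at 2.66 at Day 12 and at 1.85 between mutant days. IGFBP6 passed at 6.65 in endoderm-like and 4.36 in ExE-Mech-like cells, -1.56 at Day 12, -1.58 between wild-type days and 2.83 against ExE-Mech-like cells.

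DESeq2 called 598, 139, 87, 14, 210 and 244 genes in the same order of classes, 27 at Day 12, 5 between wild-type days and 222 between mutant days. IGFBP2 passed at 4.16, 4.22 and 4.35 in Epi-derived-like, Epi-like and ExE-Mech-like cells, 2.64 at Day 12 and 1.82 between mutant days. IGFBP6 passed at 4.38 in ExE-Mech-like cells and 2.94 against them, and turned to -0.0081 in Epi-derived-like cells and to -0.0012 between mutant days.

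RLE size factors left 0 calls at Day 12. Clusters without integration gave 6 calls in Epi-derived-like, 4 in Epi-like and 4 in amnion-like cells and 0 at Day 12, with IGFBP2 at 4.54 in amnion-like cells not called, where wild type kept 1 library. The first cluster names gave 10 calls in amnion-like cells, with IGFBP2 at 4.65 not called. Without clusters of 1 library there was 1 call in Epi-derived-like and 1 in amnion-like cells, 0 at Day 12 and 1 between mutant days. In amnion-like cells IGFBP2 was then not called (3.99) and IGFBP6 turned to -0.56, and IGFBP6 against ExE-Mech-like cells passed at 3.11. Without doublets 28 genes were called in Epi-derived-like cells, and IGFBP2 passed there (4.33) and in Epi-like cells (4.40).

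Whether a batch number pairs libraries across genotypes is not given by the labels (correlations of same-numbered deviations were -0.041 to 0.144), and the replicate block changed no call of IGFBP2 or IGFBP6. With the replicate block there were 372 calls in amnion-like cells and 0 at Day 12, and IGFBP6 turned to -0.10 in Epi-derived-like and -0.0019 in Epi-like cells. With a replicate block by genotype there was 1 call between mutant days, and IGFBP6 turned to -0.060.

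Leaving out 1 library gave 0 to 9 calls in Epi-derived-like, 2 to 20 in Epi-like, 36 to 228 in amnion-like and 0 to 1 in trophoblast-like cells, 0 to 0 at Day 12, 0 to 1 between wild-type and 0 to 3 between mutant days. IGFBP6 ranged from -0.88 to 1.22 in Epi-derived-like cells, -1.32 to 0.89 in Epi-like cells, -0.34 to 1.93 in amnion-like cells, -0.90 to 0.68 between mutant days, -2.70 to -0.15 between wild-type days, -2.30 to -0.11 at Day 12 and 2.48 to 3.47 against ExE-Mech-like cells. IGFBP2 ranged from -0.28 to 0.63 between wild-type days, 1.31 to 3.02 between mutant days and 3.72 to 5.58 in Epi-like cells. Where an arm kept 1 library, that library was assumed to vary like the other groups. IGFBP6 in endoderm-like cells rested on 0 to 115 UMIs per library, Day 10 libraries included.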
